A study of Mus musculus and Homo sapiens with 12 samples.

Results

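The genes examined here encode the proteasome, the cell's main machine for breaking down proteins. They were chosen by name: every gene whose symbol begins with PSMA to PSMG and a number was taken, apart from the interferon-inducible subunits PSMB8, PSMB9 and PSMB10, antisense genes and pseudogenes. This gave 46 symbols, of which 46 were matched among 55487 mouse genes and 45 among 78932 human genes in the deposited counts. The rule uses symbols and no measured value, and the list was chosen with earlier results of these data known. The symbols came from the authors' normalized tables, which hold only 11908 mouse and 18674 human genes. A symbol in neither table could not enter the list, so passing a filter on low counts is no finding about these genes. By role, 7 genes encode the alpha ring of the core particle and 7 the beta ring. A further 6 encode the ATPases of the regulatory cap, 11 encode its other subunits, 3 encode chaperones that assemble its base, and 4 encode chaperones that assemble the core. The list also holds 4 activators, 1 inhibitor and Psma8, the testis form of an alpha subunit. Psma8 was matched in the mouse alone, since no human gene could be paired with that symbol. A further 2 genes carry such a symbol but encode no proteasome component (PSMC3IP and PSME3IP1).

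Polyadenylated RNA was counted in 12 libraries, 3 in each of 4 groups. In the mouse, lineage-negative, Kit-positive (LK) progenitors were sorted from fetal liver at E13.5, a stage when the liver is the main site of blood formation. All embryos carried Ddx21f/f, and the conditional knockout (cKO) added Vav-Cre, a recombinase whose promoter is active in blood cells. The group called WT is therefore the floxed genotype without Cre. In the human experiment, CD34+ CD45+ CD43+ cells were made from H1, an embryonic stem cell line, transduced with lentivirus that marks cells with mCherry, and sorted 2 days later. The virus expressed either shNC, a control hairpin RNA, or shDDX21, which targets DDX21. DDX21 is an RNA helicase of the nucleolus. The labels name 1 hairpin construct per group and do not say whether the libraries came from separate embryos or cultures, so p-values measure the spread between these libraries.

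The 26S proteasome consists of a barrel, the 20S core, closed at 1 or both ends by a 19S cap. The core stacks rings of alpha subunits, which gate entry, and rings of beta subunits, of which PSMB5, PSMB6 and PSMB7 carry the active sites that cut peptide bonds. The cap binds ubiquitin chains, removes them, unfolds the substrate with a ring of ATPases and feeds it into the core. Blood progenitors depend on this machine, and inhibitors of PSMB5 are used against plasma cell cancer. When proteasome capacity falls short, the transcription factor NFE2L1 is known to raise the subunit genes together through antioxidant response elements in their promoters.

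RefSeq promoter windows on GRCm38.p6, which run from 250 bases before to 50 bases after the annotated start, were present for 38 of the mouse genes. These had 42 windows, and a gene was counted if any of its windows held the motif. The last bases of 38 of the 42 windows were found in a GENCODE transcript of the gene. The stretches below are shown because 1 motif was in a window of most cap genes. The motif CCGGAAG, read on both strands and known to be bound by ETS factors, was in the windows of 9 of 14 cap genes (64.3%) and 1 of 11 core genes (9.09%), against 9.93% of all 27025 genes with a window. It was also in 2 of 4 activators, 2 of 3 core chaperones and both genes that encode no proteasome component, 16 of the 38 genes in all (42.1%). Matches of 6 of the 9 cap genes are printed. They are given 5′ to 3′ on the gene's strand, with the motif or its reverse complement CTTCCGG in capitals. They lie at chr12:100110164-100110191 (Psmc1), chr5:21785181-21785208 (Psmc2), chr14:45329714-45329741 (Psmc6), chr16:20651616-20651643 (Psmd2), chr3:95042722-95042749 (Psmd4, minus strand) and chr14:14120973-14121000 (Psmd6, minus strand).
Psmc1: ggtggatgcaCTTCCGGcggtggcgatt
Psmc2: ccagtgagcaCTTCCGGgatggggctcg
Psmc6: ggcgggccagCCGGAAGgggcggagcca
Psmd2: ccgcagggcgCTTCCGGtctggaggaca
Psmd4: tacagctgttCCGGAAGctgctgcgaag
Psmd6: agagacgcgaCCGGAAGtcagactggcg

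The core of the antioxidant response element, TGACNNNGC on either strand, was in a window of 6 of the 38 genes (15.8%), against 14% of all genes. The cases below are shown because they precede 2 catalytic subunits and Psmd9, the called mouse gene with the largest fall. They lie at chr14:54618023-54618052 (Psmb5, minus strand), chr11:70525338-70525356 (Psmb6) and chr5:123228149-123228178 (Psmd9), with the matching bases in capitals. A match of letters is a description of the window and not a measured binding site.
Psmb5: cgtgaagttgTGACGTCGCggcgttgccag
Psmb6: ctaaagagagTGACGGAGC
Psmd9: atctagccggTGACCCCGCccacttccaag

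The pentamer CCAAT, bound by NF-Y, was in 5 of 7 alpha ring genes (71.4%) and in 14 of the 38 genes (36.8%), against 41.1% of all genes. The motif GCATGCGC, bound by nuclear respiratory factor 1, was in 7.89% of the 38 genes and in 3.05% of all genes. Each of the 4 motifs was searched on both strands, and none contains another.

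Library totals were 21116079 to 23898130 counts in the mouse and 15289510 to 19798608 in the human experiment. Levels are given as CPM, counts scaled to the depth of the library with edgeR's TMM factors, and RPKM divides them by exon length. Ddx21 had 1410, 1431 and 1432 CPM in WT and 276, 283 and 282 CPM in cKO, a log2 fold change of -2.35 (SE 0.033). DDX21 had 477, 465 and 468 CPM in shNC and 68.6, 69.2 and 67.0 in shDDX21, a log2 fold change of -2.78 (SE 0.029). Of the markers of the sorts, mouse Kit was lower in cKO (362 CPM in WT and 317 in cKO). In the human cells CD34 (248.6 and 297.5 CPM) and SPN, which encodes CD43 (691 and 883), were higher in shDDX21 and PTPRC, which encodes CD45 (94.95 and 69.35), was lower. Of the markers outside the mouse sort, Cd34 was at 161% and Ptprc at 143% of WT, while Spn was called lower (331 CPM in WT and 301 in cKO). Of all genes tested, 20.7% were called higher and 15.8% lower in the mouse, and 25.3% and 27.4% in the human cells. Markers of other cells moved too: 5 of the 8 hepatocyte genes were called higher in cKO, the other 3 were too low to test, and their sum rose from 10.7 to 12.3 CPM in WT to 41.9 to 46.1 in cKO. Of 8 endothelial genes 4 were called higher, with sums of 49.9 to 54.5 and 87.4 to 94.1 CPM. Of 7 erythroid genes 3 were called higher and 2 lower, with sums of 336 to 489 CPM in WT and 357 to 487 in cKO, and of 7 macrophage genes 1 was called higher and 1 lower, with sums of 7.70 to 8.57 and 7.38 to 9.02 CPM and C1qc without a count. Of the 4 markers removed by the sort, Ly6g and Cd3e had no count in WT and 0.0135 CPM on average in cKO, and the sum was at most 4.17 CPM. Human markers were found by symbol, and those without a matched symbol were not read. In the human cells, 3 of 3 matched macrophage genes were called lower (sums of 43.6 to 51.0 and 30.5 to 32.1 CPM). Of 5 erythroid genes 3 were called higher and 1 lower (449 to 469 and 540 to 555 CPM). Of 7 human endothelial genes 3 were called higher and 3 lower, with sums of 1620 to 1670 and 1460 to 1480 CPM. The 1 matched hepatocyte gene, TF, was lower at 4.21 to 5.24 CPM against 5.81 to 6.83. Their part in the proteasome values was not tested, and in bulk RNA fewer cells of a type cannot be told apart from less RNA per cell.

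In the mouse, the deviation of a library from its group mean followed the GC content of genes, and was negative for GC-rich genes in WT replicate 3 and cKO replicate 2. Across 11037 genes, Pearson's r between GC content and a library's deviation from its group mean was -0.57 in WT replicate 3 and -0.64 in cKO replicate 2, and 0.49, 0.33, 0.63 and 0.016 in WT replicates 1 and 2 and cKO replicates 1 and 3. These correlations are descriptions across genes, which are not independent replicates. Deviations within a group balance each other, and cKO replicate 1 deviated about as strongly as cKO replicate 2. The values therefore do not tell which of these cKO libraries is the unusual one. Among the proteasome genes the same r was -0.64 in WT replicate 3 and in cKO replicate 2. The GC-rich genes Psmb5 (57.1% GC), Psmd3 (56.2%), Psmg4 (55.2%) and Psmd4 (54.6%) were the lowest of their group in both libraries. Psmd7, at 55.6% GC, was also lowest of its group in both.

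**Figure D1:**
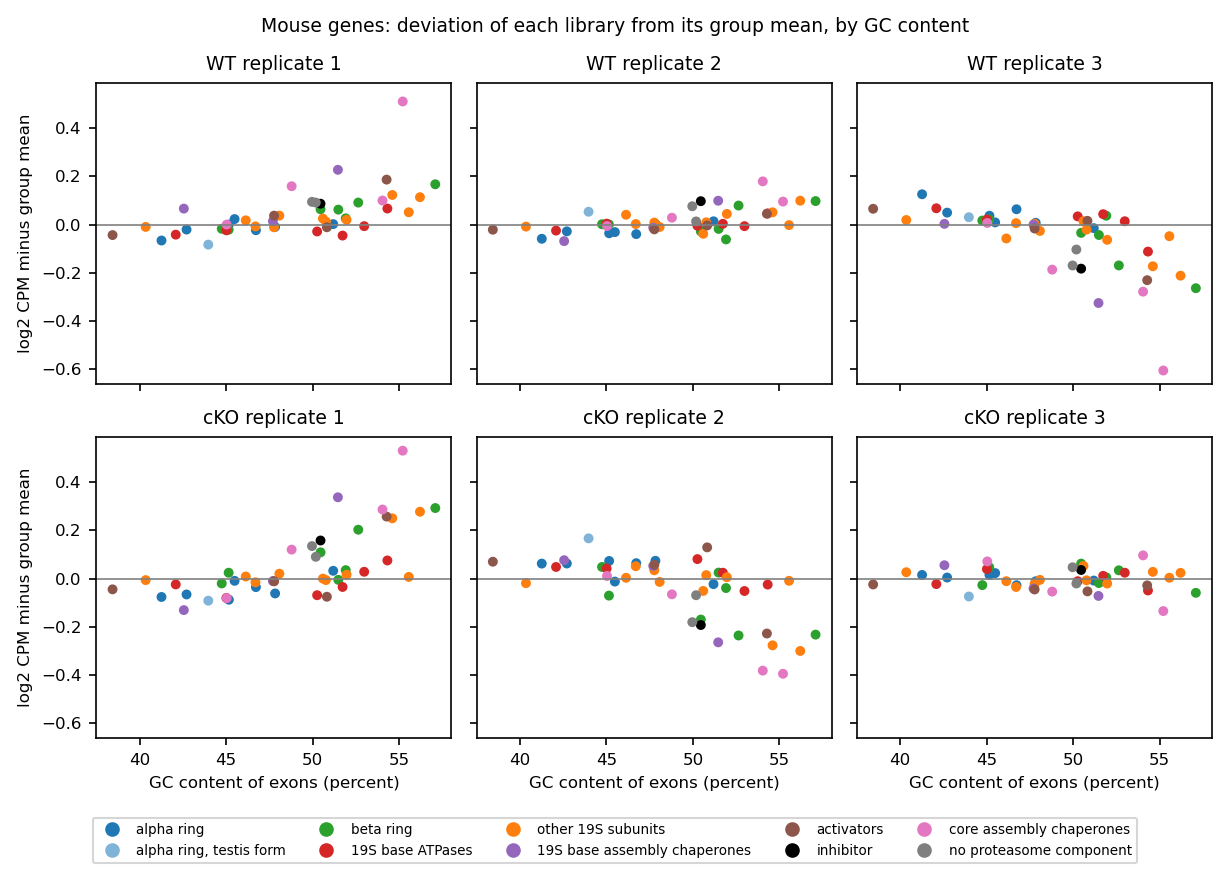
Each panel is 1 mouse library, with the GC content of a gene's exons in percent on the x axis and its log2 CPM minus the mean of its group on the y axis. Points are the 46 proteasome genes coloured by role. GC-rich genes lie below 0 in WT replicate 3 and cKO replicate 2 and above 0 in WT replicate 1 and cKO replicate 1.

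In the main fit, a smaller share of the proteasome genes than of all genes was called after loss of Ddx21 in mouse progenitors. Of 46 genes, all of which passed the filter on low counts, 2 were called higher in cKO and 8 lower at an adjusted p under 0.05. Of all 14918 genes tested, 36.5% were called, 20.7% higher and 15.8% lower. The median log2 fold change over the 46 genes was -0.060, and over all genes 0.00057. The median SE was 0.045 for these genes and 0.12 for all genes, so small shifts were measured more precisely here than for a typical gene. The 31 core and cap subunits included 1 called higher and 4 called lower. Their summed level was at 96.4% of WT with TMM, without overlap between groups, and at 101% on the total-count scale, with overlap.

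Those counts rest on few libraries and on the scaling. Without WT replicate 1, WT replicate 2 or cKO replicate 3, 2 genes were called lower in each case. Over all genes, 1498 of 15312, 1480 of 15435 and 1368 of 15331 were lower in those fits. Without WT replicate 3 and cKO replicate 2 together, 1 was called higher and 16 lower, and with an offset for GC content 3 and 19. The calls over all genes moved too, from 3083 higher and 2360 lower of 14918 in the main fit. They were 2978 and 2855 of 15011 without both libraries, and 3448 and 3546 of 14918 with the GC offset. Leaving out both libraries ended the call of Psmd2 and added Psmb5, Psmc4, Psmd3, Psmd4, Psme3, Psmg1, Psmg3 and Psmg4 as lower, with adjusted p from 0.011 (Psmd3) to 0.042 (Psmc4). Scaling to total counts gave 4 higher and 5 lower, with a median of 0.0059 over the 46 genes and 0.066 over all genes, of which 3565 were then higher and 1612 lower. Of the 10 called genes, Psmg2 was called under each of the 17 alternatives run, and the 10 kept their direction under each.

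**Figure D2:**
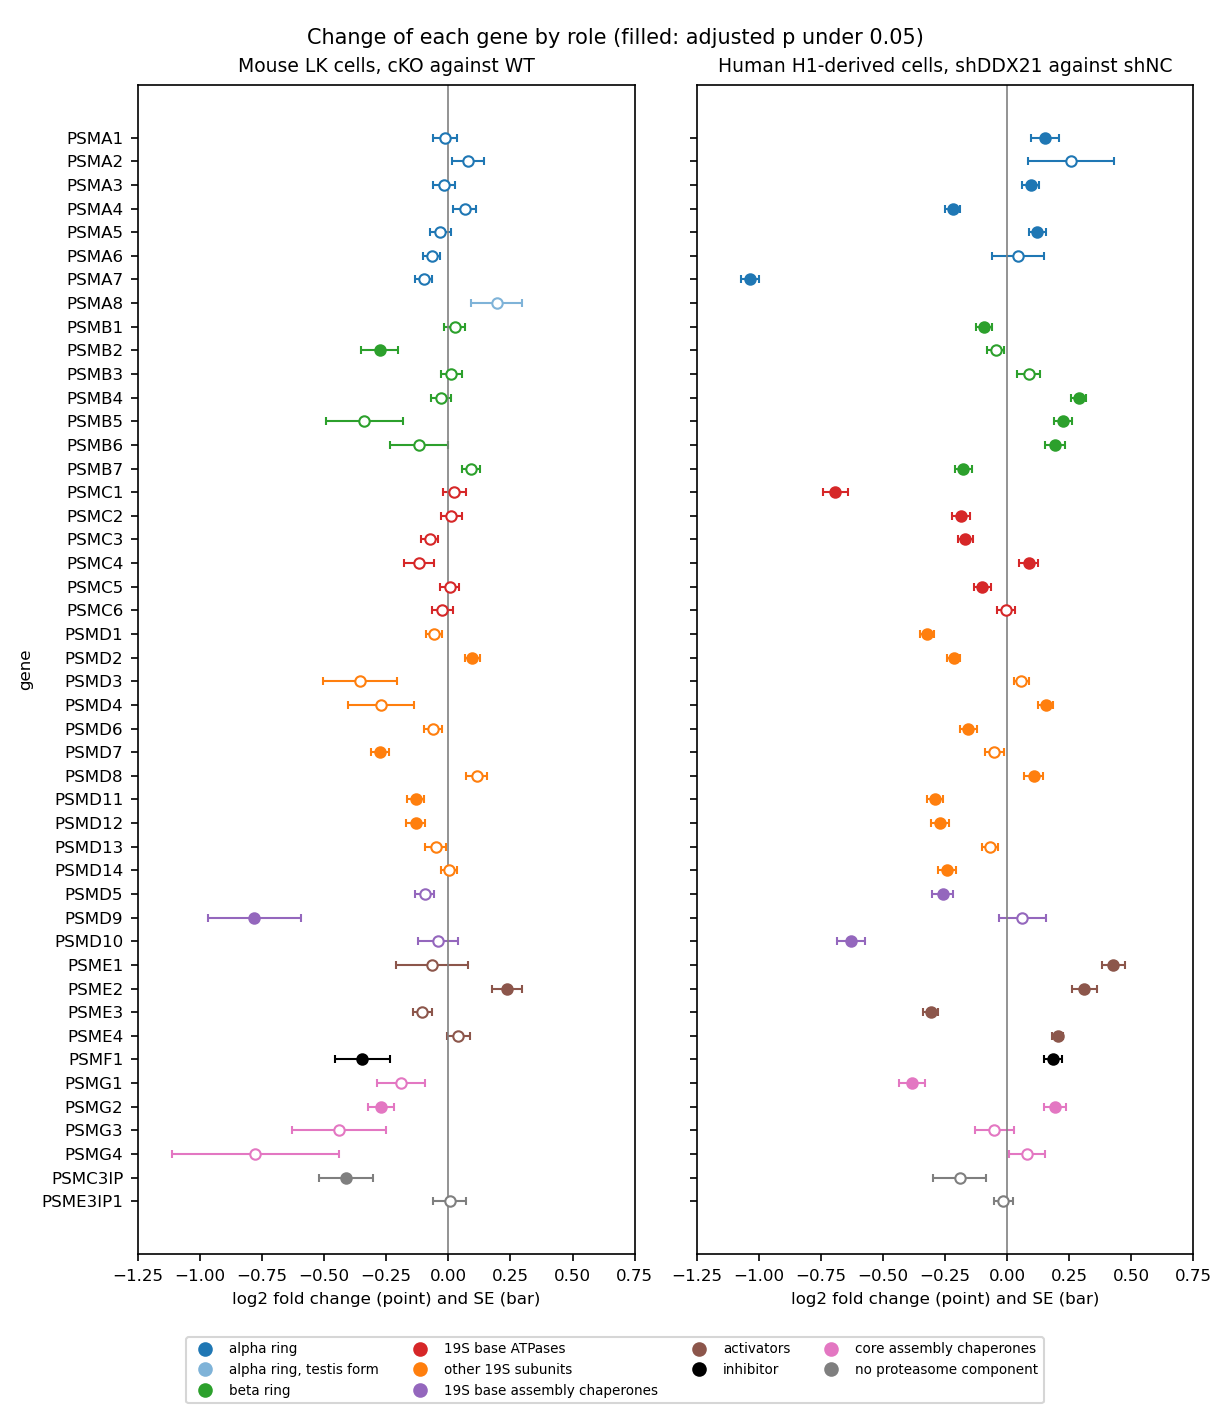
The log2 fold change (x axis, points) with its SE (bars) is shown for each gene (y axis), with the mouse on the left and the human experiment on the right. Filled points have an adjusted p under 0.05. Most mouse points lie close to 0, and human PSMA7, at -1.04, is the lowest point of either panel.

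Of the 14 core subunit transcripts, 1 was called in the mouse, against 36.5% of all genes. None of the 7 alpha ring genes was called, with log2 fold changes between -0.10 and 0.08. The summed level of the 7 alpha genes was 1539, 1526 and 1592 CPM in WT and 1488, 1584 and 1537 CPM in cKO, and these ranges overlap. Per kilobase of exon, Psma5 was the most abundant of the core genes in WT, at 185.4 ± 1.14 RPKM, and Psmb1 the least, at 39.0 ± 0.58 RPKM (SD, n = 3 each). Psma8, which replaces Psma7 in the proteasome of male germ cells, was measured at 9.60, 10.6 and 10.4 CPM in WT and 10.9, 13.05 and 11.02 CPM in cKO, all cKO libraries above WT but by an uncalled 0.20 on the log2 scale (SE 0.10, adjusted p 0.18). Psma7 itself was at 220.3, 222 and 218 CPM in WT and 210.0, 202 and 204 CPM in cKO. The cKO libraries all lay below the WT libraries, and the change of -0.10 (SE 0.033) had an adjusted p of 0.053. It was called with RLE scaling and with the GC offset.

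Of the 7 beta ring genes, Psmb2 alone was called. It had 140.3, 132 and 131 CPM in WT and 119, 98.2 and 115 CPM in cKO. The groups did not overlap, the decrease was -0.28 on the log2 scale (SE 0.075, adjusted p 0.026), and the call was lost without WT replicate 1, WT replicate 2 or cKO replicate 3. The catalytic subunits differed in how tightly they were measured. Psmb5, the chymotrypsin-like subunit, had 106, 101 and 78.3 CPM in WT and 91.0, 63.1 and 71.2 in cKO. Its lowest value in each group came from WT replicate 3 and cKO replicate 2, the groups overlapped, and the change of -0.34 (SE 0.16) had an adjusted p of 0.13. With the GC offset the value was -0.19 (SE 0.046, adjusted p 0.0090), and without both libraries it was -0.34 (adjusted p 0.029).

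Psmb6, the caspase-like subunit, had 129.7, 129 and 108 CPM in WT and 129, 94.8 and 114 in cKO. The groups overlapped, with a change of -0.12 (SE 0.12, adjusted p 0.47). Psmb7, the trypsin-like subunit, had 184, 186 and 188 CPM in WT and 196, 205 and 195 in cKO. All cKO libraries lay above the WT libraries, by 0.09 on the log2 scale (SE 0.036, adjusted p 0.085), and the gene was called on the total-count scale.

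In the mouse cap, none of the 6 ATPase genes was called, with log2 fold changes between -0.12 and 0.02. Psmc1, whose ATPase helps open the gate of the core, had 346, 352 and 362 CPM in WT and 342, 379 and 356 in cKO, and the groups overlapped. Among the 11 other cap subunits, Psmd2 was called higher and Psmd7, Psmd11 and Psmd12 lower. Psmd7, a scaffold subunit that pairs with the deubiquitinase, had 349, 337 and 326 CPM in WT and 279.7, 277 and 279 in cKO. The cKO libraries lay within 4 CPM of each other and well below WT, a change of -0.28 (SE 0.037, adjusted p 0.0011). This was the smallest p of any proteasome gene in the mouse, and with the GC offset the change was -0.18 (adjusted p 0.059).

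Psmd2, a large subunit that holds the ATPase ring and receives ubiquitin shuttles, had 637, 636 and 623 CPM in WT and 673, 682 and 672 in cKO. The groups did not overlap, but the increase was small, 0.10 on the log2 scale (SE 0.031, adjusted p 0.045), and 14 of 17 alternatives ended the call. Psmd11 had 274, 265 and 262 CPM in WT and 247, 241 and 242 in cKO, lower by -0.13 on the log2 scale (SE 0.034, adjusted p 0.020). Psmd12 had 205, 209 and 195 CPM in WT and 186, 186 and 184 in cKO, also lower by -0.13 (SE 0.038, adjusted p 0.032). In both genes the groups did not overlap. Both calls were lost under total-count or upper-quartile scaling, with DESeq2, and without WT replicate 1, WT replicate 2, cKO replicate 2 or cKO replicate 3, and that of Psmd12 without cKO replicate 1 and with replicate number in the fit too. Psmd14, the deubiquitinase that removes ubiquitin chains from substrates, had 207, 207.5 and 212 CPM in WT and 208, 206 and 213 in cKO. Its groups overlapped, and the estimate of 0.0020 (SE 0.033) was the closest to 0 of any proteasome gene.

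Among assembly genes, Psmd9 and Psmg2 were called lower in the mouse. Psmd9, a chaperone of the ATPase ring, had 71.3, 65.2 and 48.5 CPM in WT and 44.6, 29.3 and 33.6 in cKO. WT replicate 3 was the lowest WT library, but all cKO libraries lay below it. The change of -0.78 (SE 0.19, adjusted p 0.016) was -0.79 without WT replicate 3 and cKO replicate 2 (adjusted p 0.0016), and the call was lost without WT replicate 1, WT replicate 2 or cKO replicate 3. The other base chaperones, Psmd5 and Psmd10, were not called, at -0.10 (SE 0.039, adjusted p 0.094) and -0.04 (SE 0.079, adjusted p 0.71). Psmg2, which pairs with Psmg1 to start the alpha ring, had 71.4, 71.1 and 71.7 CPM in WT and 55.9, 59.6 and 62.1 in cKO. The WT libraries agree within 1 CPM and every cKO library lay below them, a change of -0.27 (SE 0.052, adjusted p 0.0062).

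Psmg1, Psmg3 and Psmg4 had estimates of -0.19, -0.44 and -0.78 with SEs of 0.097, 0.19 and 0.34, and none was called. Without WT replicate 3 and cKO replicate 2 all 4 core chaperones were called lower, and 3 of 4 were with DESeq2, with the GC offset, without WT replicate 3 or without cKO replicate 1. The summed level of the 4 core chaperones was 175, 168 and 150.1 CPM in WT and 142, 128 and 137 in cKO, and the groups did not overlap. The same holds on the total-count scale, at 86.2% of WT against 82.4% with TMM. Psmf1, which encodes PI31, a core-binding protein first described as an inhibitor, had 65.6, 66.1 and 54.4 CPM in WT and 54.2, 42.4 and 49.8 in cKO. The lowest WT and the highest cKO library differed by under 1 CPM, and the change of -0.35 (SE 0.11, adjusted p 0.044) lost its call under 6 of 17 alternatives. They were total-count scaling, a filter of 10 counts in every library, and the fits without WT replicate 1, WT replicate 2, cKO replicate 2 or cKO replicate 3.

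The activators open the core without the cap. Psme2, part of the PA28 ring that PSME1 and PSME2 form together, had 78.5, 79.0 and 80.0 CPM in WT and 88.2, 101.8 and 89.6 in cKO. All cKO libraries were above WT, by 0.24 on the log2 scale (SE 0.061, adjusted p 0.021), and the call was lost without WT replicate 1 or WT replicate 2 and with DESeq2. Its partner Psme1 had 82.3, 74.6 and 61.6 CPM in WT and 82.4, 58.8 and 67.6 in cKO, which overlap. Psme3, the nuclear PA28 gamma, had 468, 450.2 and 451 CPM in WT and 421, 442 and 411 in cKO. The groups did not overlap, with a change of -0.10 (SE 0.039, adjusted p 0.076). Psme4, which encodes PA200, had 262, 266 and 282 CPM in WT and 269, 291 and 273 in cKO, and the groups overlapped. Of the genes that encode no proteasome component, Psmc3ip, a partner of meiotic recombinases, was lower by -0.41 (SE 0.11, adjusted p 0.023), and Psme3ip1 was at 0.0055 (SE 0.066).

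In the human cells the proteasome genes moved in both directions after DDX21 knockdown. Of 45 genes, all tested, 14 were called higher and 18 lower, while 52.7% of all 20188 genes were called, 25.3% higher and 27.4% lower. The median log2 fold change was -0.047, against 0.0052 over all genes. Scaling to total counts gave 10 higher and 20 lower, with medians of -0.076 and -0.024. Over all 20188 genes, that scaling gave 4625 higher and 5969 lower. With at least 0.25 on the log2 scale required as well, 3 were higher and 9 lower. The share of all genes that pass this limit was not computed, so these counts have no background. Of the 32 called genes, 25 were called under each of the 15 alternatives run, and the 32 kept their direction under each.

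The alpha ring held the largest change. PSMA7 (ENSG00000101182; hg38 chromosome 20, 62136733 to 62143440, minus strand) encodes the alpha4 subunit. The shNC libraries held 2687, 2411 and 2556 of its counts and the shDDX21 libraries 1350, 1267 and 1256, or 142, 157 and 144 CPM against 69.3, 75.1 and 71.5. Every shDDX21 library was below every control by a wide margin, at 48.7% of the shNC mean or -1.04 on the log2 scale (SE 0.037, adjusted p 4.56e-37). Its exons share no bases with another gene in the deposited annotation columns. PSMA4, which encodes alpha3, had 146, 151 and 153 CPM in shNC and 131, 129 and 125 in shDDX21. It fell by 0.22 on the log2 scale (SE 0.031, adjusted p 7.76e-09), with no overlap between groups.

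The other called alpha genes rose slightly. PSMA1 was higher by 0.15, PSMA3 by 0.09 and PSMA5 by 0.12 on the log2 scale (SE 0.057, 0.034 and 0.034), without overlap between the groups. Other genes share 21.9% of the exon bases of PSMA1 on the same strand, so its counts are uncertain. PSMA5 was called in every alternative. PSMA1 lost its call under total-count scaling, with DESeq2 and without shNC replicate 1 or shDDX21 replicate 1, and PSMA3 under total-count scaling, with DESeq2 and without shNC replicate 1. PSMA2 and PSMA6 were not called and had only 3.35 and 9.76 CPM in shNC. Other human genes share 17.2% and 14.1% of their exon bases on the same strand, so their counts are uncertain. Without PSMA7, the summed alpha ring was at 416, 427 and 436 CPM in shNC and 432, 428 and 422 in shDDX21, which overlap.

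The summed level of the beta ring was higher in shDDX21, a value with no test. It was 737, 752 and 739.7 CPM in shNC and 782, 787 and 779 in shDDX21, 105% of the control, and 103% on the total-count scale, without overlap under either. PSMB4, PSMB5 and PSMB6 were called higher and PSMB1 and PSMB7 lower, and PSMB2 and PSMB3 were not called, at -0.05 and 0.09. PSMB5 had 106, 114 and 106.9 CPM in shNC and 129, 132 and 119 in shDDX21, up by 0.22 (SE 0.035, adjusted p 9.64e-08). PSMB6 had 66.9, 67.6 and 66.9 CPM in shNC and 78.5, 75.3 and 76.2 in shDDX21, up by 0.19 (SE 0.040, adjusted p 3.24e-05). In both genes the groups did not overlap, and PSMB6 lost its call with an offset for gene length, with or without replicate number in the fit. The remaining catalytic subunit fell. PSMB7 had 122, 120.5 and 123 CPM in shNC and 103, 110.1 and 111 in shDDX21, down by -0.18 (SE 0.034, adjusted p 6.68e-06). PSMB1 had 119, 116 and 116 CPM in shNC and 109, 110.5 and 110.4 in shDDX21, a change of -0.09 (SE 0.033, adjusted p 0.013) that lost its call without shNC replicate 1 or shDDX21 replicate 1, with DESeq2 and with upper-quartile scaling. PSMB4, which encodes beta7, had 151, 152 and 154 CPM in shNC and 188, 182 and 188 in shDDX21, the largest rise of the core at 0.29 (SE 0.029, adjusted p 6.02e-14).

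**Figure D3:**
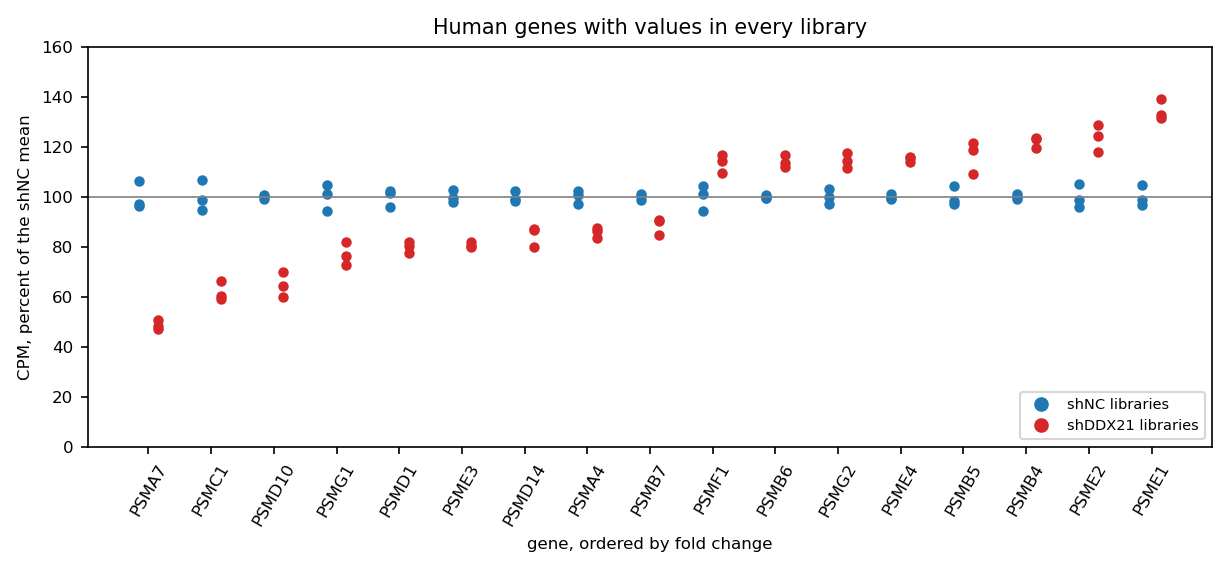
Each point is 1 human library, as CPM in percent of the shNC mean (y axis), for 17 genes ordered by fold change (x axis). The shNC libraries lie around 100 and the shDDX21 libraries run from about 48.7 on average in PSMA7 to 134.6 in PSME1. The groups overlap in none of the 17, but all were picked from the called genes, so this does not describe the whole list.

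The cap genes were mostly lower in shDDX21. Of all genes, 27.4% were called lower and 25.3% higher. Of 17 cap subunits, 10 were called lower and 3 higher, with a median log2 fold change of -0.16. The 14 core subunits had 6 higher and 4 lower with a median of 0.09. Upper-quartile scaling gave medians of -0.09 and 0.16 and total counts -0.19 and 0.06, a shift common to all genes. With an offset for gene length the cap median was -0.09 and the core median 0.09, and that of the beta ring went from 0.09 to -0.01. The summed cap level was 2168, 2171 and 2134 CPM in shNC and 2003, 1958 and 1962 in shDDX21, or 91.5% of the control, and the groups were far apart. The summed core level was 1295, 1336 and 1319 CPM in shNC and 1283, 1290.0 and 1272 in shDDX21, or 97.4%. Without PSMA7 the core was at 104% of the control, with no overlap under TMM scaling and with overlap on the total-count scale, where it was at 101%. PSMA7 made up 34.8% of the net loss over the 31 core and cap genes, PSMD1 18.1% and PSMD2 18.0%. Sums of CPM weigh long and abundant transcripts most.

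**Figure D4:**
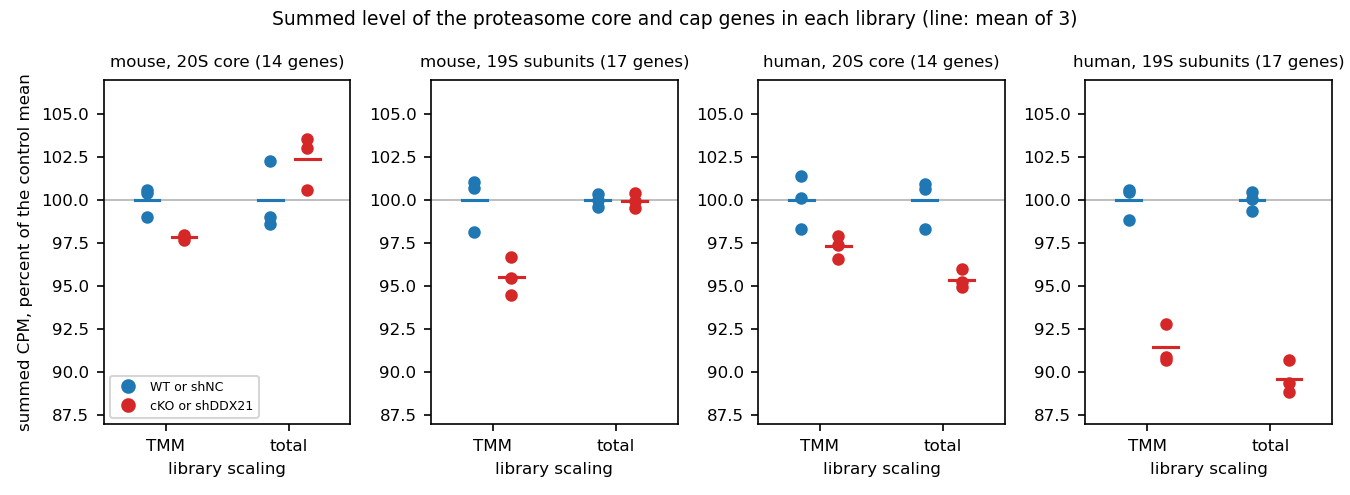
Summed CPM of the 14 core and 17 cap genes in each library is plotted as a percent of the control mean (y axis, which does not start at 0), under TMM and total-count scaling (x axis). Points are libraries and lines are means of 3. The human cap is below its control in all libraries under both scalings, and the mouse cap is below WT under TMM but at 100% on the total-count scale.

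The ATPase ring showed 4 lower genes, PSMC1, PSMC2, PSMC3 and PSMC5, and 1 higher, PSMC4, where 52.7% of all genes were called. PSMC1 had 65.3, 60.3 and 58.0 CPM in shNC and 37.0, 40.7 and 36.3 in shDDX21, 62.1% of the control. The groups were well apart, by -0.69 on the log2 scale (SE 0.051, adjusted p 7.84e-20). Opposite-strand genes share 76.1% of its exon bases, among them NRDE2, and whether the counting used strand is not given in the sources used here. NRDE2 itself was at 42.4, 43.8 and 42.7 CPM in shNC and 39.7, 43.7 and 40.9 in shDDX21, 96.4% of the control with overlapping groups. The pseudogene PSMC1P1, whose reads could be shared with PSMC1, had 55, 40 and 41 counts in shNC and was lower in shDDX21 too, at 20, 30 and 17. PSMC4 had 81.0, 82.2 and 77.7 CPM in shNC and 86.6, 85.0 and 84.2 in shDDX21, a rise of 0.09 (SE 0.038, adjusted p 0.046) that lost its call under 11 of 15 alternatives. These were total-count scaling, no filter, DESeq2, the gene-length offset, the fits with replicate number, and those without shNC replicate 1 or 3 or shDDX21 replicate 1, 2 or 3. PSMC5 was lower by -0.10 (SE 0.034, adjusted p 0.0096), and lost its call with upper-quartile scaling, DESeq2, a gene-length offset with or without replicate number, and without shDDX21 replicate 2. PSMC6 was not called, at -0.0045 (SE 0.036).

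Among the other cap subunits, PSMD1, PSMD2, PSMD6, PSMD11, PSMD12 and PSMD14 were called lower. PSMD1, the large scaffold opposite PSMD2, had 202, 189.8 and 201 CPM in shNC and 159, 154 and 162 in shDDX21, down by -0.32 (SE 0.030, adjusted p 1.28e-15). PSMD14 had 97.7, 96.7 and 101 CPM in shNC and 85.3, 85.7 and 78.7 in shDDX21, down by -0.24 (SE 0.037, adjusted p 5.96e-08). PSMD2 had 293, 283 and 273 CPM in shNC and 242.6, 239.3 and 248.8 in shDDX21, a change of -0.22 (SE 0.026, adjusted p 6.87e-11). In these 3 genes no shDDX21 library reached the lowest control. The 2 subunits called higher were PSMD4, a ubiquitin receptor, and PSMD8. PSMD4 had 153, 153.5 and 156 CPM in shNC and 175, 176 and 163 in shDDX21, a rise of 0.15 (SE 0.030, adjusted p 1.08e-05). PSMD8 had 95.7, 92.1 and 95.2 CPM in shNC and 107.2, 98.7 and 98.5 in shDDX21, a rise of 0.11 (SE 0.037, adjusted p 0.011) that was lost without shNC replicate 2 or shDDX21 replicate 1 and on the total-count scale. PSMD3, PSMD7 and PSMD13 were not called, at 0.06, -0.05 and -0.07, and opposite-strand genes share 31.2% of the exon bases of PSMD7.

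Of the base chaperones, PSMD10 and PSMD5 were lower and PSMD9 was not called. PSMD10, also known as gankyrin, had 44.3, 43.7 and 44.3 CPM in shNC and 28.3, 30.8 and 26.5 in shDDX21, 64.7% of the control. The control libraries lay within 1 CPM of each other, and the change of -0.63 (SE 0.058, adjusted p 1.29e-15) was among the 4 of smallest p in the human experiment, after PSMA7, PSMC1 and PSMD1. PSMD5 changed by -0.26 (SE 0.041, adjusted p 1.28e-07). The core chaperones divided. PSMG1 was lower by -0.38 (SE 0.052, adjusted p 1.91e-09) and its partner PSMG2 higher, with 59.2, 57.4 and 61.1 CPM in shNC and 67.8, 66.0 and 69.7 in shDDX21, a rise of 0.19 (SE 0.043, adjusted p 9.08e-05). PSMG3 and PSMG4 were not called, at -0.05 and 0.08.

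The activators were all called, 3 higher and 1 lower, where 25.3% of all genes were called higher and 27.4% lower. PSME1 had 47.0, 44.5 and 43.4 CPM in shNC and 62.5, 59.2 and 59.7 in shDDX21, up by 0.43 (SE 0.047, adjusted p 2.26e-12). PSME2 had 42.1, 44.8 and 40.9 CPM in shNC and 54.8, 50.2 and 52.9 in shDDX21, up by 0.31 (SE 0.050, adjusted p 1.84e-07). Both partners of the PA28 ring were above every control library. PSME4 had 343, 349.8 and 344 CPM in shNC and 394, 399.5 and 401 in shDDX21, up by 0.20 (SE 0.023, adjusted p 6.76e-12). PSME3 had 188, 195 and 185 CPM in shNC and 155, 151 and 152 in shDDX21, and was the exception at -0.31 (SE 0.029, adjusted p 4.97e-15). PSMF1 had 100.3, 108 and 111 CPM in shNC and 124, 121 and 117 in shDDX21, a rise of 0.19 (SE 0.035, adjusted p 5.63e-06) without overlap. PSMC3IP and PSME3IP1 were not called, at -0.19 (SE 0.11, adjusted p 0.13) and -0.02 (SE 0.039).

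The 2 experiments were compared in a fit of 12 libraries that tested, gene by gene, whether the change in cKO differed from the change in shDDX21. Of 45 genes, 13 had a mouse change above the human change and 14 below it, while 56.2% of all 10318 matched genes differed, 35.8% above and 20.4% below. With total-count scaling the split was 18 and 6, and over all 10318 genes it was 4337 and 1566. The counts fell to 12 and 6 without WT replicate 1 and to 11 and 7 without shDDX21 replicate 1. Over all genes, those fits gave 3564 and 1789 of 10394, and 3495 and 1851 of 10321. Species, cell source, time and the way DDX21 was removed all differ between the experiments and cannot be told apart.

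PSMA7 differed most, by 0.94 on the log2 scale (SE 0.060, adjusted p 1.49e-07), since it fell to 48.7% of the control in the human cells and was at 93.4% in the mouse. PSMC1 differed by 0.71 (SE 0.079, adjusted p 1.21e-05), PSMD2 by 0.31 (SE 0.043, adjusted p 6.79e-05) and PSMG2 by -0.46 (SE 0.063, adjusted p 6.96e-05). Each of these 4 was called under all 20 alternatives run. Of the genes called in both experiments, PSME2 was higher in both and PSMD11 and PSMD12 were lower in both. PSMD2 was higher in the mouse and lower in the human cells, and PSMF1 and PSMG2 the reverse. For PSME2 the difference between the experiments was -0.07 (SE 0.084, adjusted p 0.49).

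**Figure D5:**
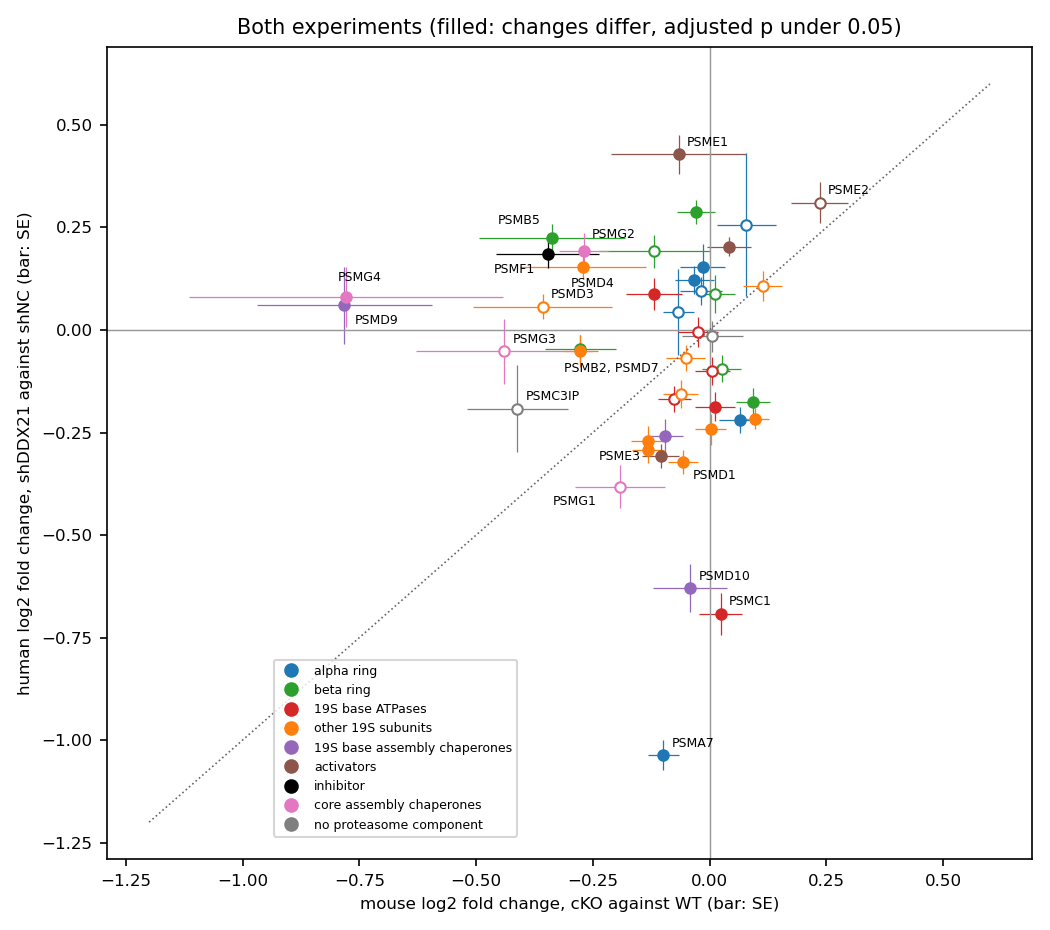
Mouse log2 fold changes (x axis) are plotted against human ones (y axis) for 45 genes, with bars for the SE and colours for roles. Filled points mark the 27 genes whose changes differ between the experiments, and the dotted line marks equal changes. PSMA7, PSMC1 and PSMD10 lie far below the line, with mouse values near 0.

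Related genes that are not part of the list were read in the same fits. There, 20.7% of all mouse genes were called higher and 15.8% lower, and 25.3% and 27.4% of all human genes. The 3 interferon-inducible core subunits, which replace the catalytic subunits in the immunoproteasome, were all called higher in shDDX21 and none was called in the mouse. PSMB8 had 5.19, 7.31 and 6.92 CPM in shNC and 14.4, 13.6 and 15.6 in shDDX21, up by 1.18 (SE 0.11, adjusted p 2.76e-15). PSMB9 was up by 0.94 from only 13, 11 and 11 counts (SE 0.34, adjusted p 0.016), and PSMB10 by 0.39 (SE 0.087, adjusted p 7.97e-05). In mouse cKO the 3 values were 0.16, -0.05 and -0.47 (SE 0.11, 0.16 and 0.35). The difference between the experiments passed the test for PSMB8 (-1.01, adjusted p 0.00042) and PSMB9 (-0.99, adjusted p 0.0099), and had an adjusted p of 0.11 for PSMB10.

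Among other subunits, assembly and bound factors, 1 of 11 was called higher and 2 lower in the mouse, and 4 of 12 higher and 5 lower in the human cells. Such counts stand beside 36.5% of all mouse genes and 52.7% of all human genes called in either direction. The mouse calls were ZFAND5 (0.28), TXNL1 (-0.17) and UBE3C (-0.19). The 3 human genes of smallest p were PITHD1 (-0.80), ECPAS (-0.37), an adaptor that binds the 26S particle, and USP14 (-0.30), a deubiquitinase of the cap. POMP, the maturation factor of the core, was called in neither, at 0.05 and 0.07. In the NFE2L1 pathway, 2 of 10 were higher and 2 lower in the mouse, and 3 higher and 6 lower in the human cells. DDI2, the protease that activates NFE2L1, fell by 0.77 on the log2 scale in shDDX21 (SE 0.038, adjusted p 1.01e-28) and was at -0.11 in cKO (adjusted p 0.054). NGLY1, which deglycosylates NFE2L1, was higher in cKO (0.35) and lower in shDDX21 (-0.30). The other human calls of smallest p were SYVN1 (0.53) and MAFF (-0.66). In the mouse, MAFF was also higher (1.04, from 0.896 to 1.85 CPM) and MAFG (-0.28) and KEAP1 (-0.50) were lower. NFE2L1 itself was at -0.12 (SE 0.11, adjusted p 0.46) in cKO and 0.14 (SE 0.032, adjusted p 0.00014) in shDDX21.

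Of 18 genes for ubiquitin and substrate delivery, 3 were higher and 3 lower in the mouse, and 7 higher and 5 lower in the human cells. The shares of all genes called were 36.5% and 52.7%. RPS27A, which encodes ubiquitin fused to a ribosomal protein, rose by 0.56 on the log2 scale in shDDX21, and UBA6, an activating enzyme for ubiquitin, fell by 0.66. In the mouse, VCP (0.16) was called higher and UBQLN4 (-0.31) lower. VCP, the segregase that extracts substrates, was lower in the human cells (-0.13). The ubiquitin genes have near-identical copies, so their counts are uncertain: human UBB was at only 1.38, 1.18 and 1.13 CPM in shNC.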

How the data were processed

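Polyadenylated RNA was sequenced from 3 libraries in each of 4 groups. The authors deposited whole-number counts per gene with gene positions, strand and exon length in base pairs, per the file headers, for 55487 mouse and 78932 human genes. The submitters' processing notes name STAR, featureCounts, DESeq2 and the builds mm10 and hg38 without versions or roles. Strand setting and treatment of multiply mapped reads are not given in the sources used here. The deposited normalized signal tables equal the counts divided by 1 constant per library (largest relative deviation 4.97e-10). They were used for gene symbols only, which 11908 mouse and 14931 of 18674 human genes in them carried, and the authors' deposited log2 fold changes were not used.

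The test was that of edgeR 4.0.16, run under R 4.3.3 (filterByExpr, TMM factors, quasi-likelihood test, Benjamini-Hochberg adjustment over all genes tested, threshold 0.05), separately for each experiment and in 1 fit of 12 libraries with an interaction over genes matched by symbol. The alternatives were DESeq2 1.42.0, RLE, upper-quartile and total-count scaling, no filter, at least 10 counts in every library, a gene-length offset, replicate number as a block, and leaving out each library. The GC offset and the fit without WT replicate 3 and cKO replicate 2 were added after seeing the data. On simulated data, the mouse fit recovered 2, 25, 46 and 50 of 50 genes changed by log2 sizes of 0.25, 0.5, 1 and 2. It made 12 false calls among 14918 genes. The human fit recovered 26, 44, 50 and 50, with 7 false calls among 20188. Few genes were changed in the simulation, whereas 36.5% of mouse genes were called in the data. Its changed genes were also not matched to the proteasome genes in SE. It therefore does not tell which sizes of change could be missed among the proteasome genes.

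The gene list and the related lists were chosen with earlier results of these data known. Values in every library were given for the catalytic subunits, PSMD14, the activators, PSMF1, the 4 genes of smallest p in each experiment, the 3 of smallest interaction p, and called genes opposite in sign to most called genes of their role. From each related list, up to 3 called genes of smallest p per experiment were named. One gene that the rule would name is not reported here. Library values of PSMA8, PSMB2, PSMB4, PSMD12, and the values of POMP, NFE2L1, NGLY1, KEAP1 and UBB outside that rule, were chosen after they were seen. Promoter windows came from RefSeq on GRCm38.p6, and 99.4% of mouse gene identifiers were found in GENCODE M21 on GRCm38, 99.4% of those at the same position.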

Additional observations from a re-analysis of the deposited data

Results flagged for a closer look

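For 27 of 45 genes the change in the mouse knockout differed from the change in the human knockdown by edgeR's interaction test with adjustment over all 10318 matched genes, of which 56.2% differed. The values that follow are mouse minus human differences on the log2 scale. Among core genes they were -0.17 for PSMA1, 0.29 for PSMA4, -0.16 for PSMA5, 0.94 for PSMA7, -0.23 for PSMB2, -0.32 for PSMB4, -0.56 for PSMB5 and 0.27 for PSMB7. In the ATPase ring they were 0.71 for PSMC1, 0.20 for PSMC2 and -0.21 for PSMC4. Among the other cap genes they were 0.26 for PSMD1, 0.31 for PSMD2, -0.43 for PSMD4, -0.22 for PSMD7, 0.16 for PSMD11, 0.14 for PSMD12 and 0.24 for PSMD14. Among chaperones they were 0.16 for PSMD5, -0.84 for PSMD9, 0.59 for PSMD10, -0.46 for PSMG2 and -0.86 for PSMG4. The activators PSME1, PSME3 and PSME4 gave -0.49, 0.20 and -0.16, and the inhibitor PSMF1 gave -0.53. PSMA4, PSMA7, PSMB4, PSMB7, PSMC1, PSMD1, PSMD2, PSMD9, PSMD10, PSMD14, PSME3, PSMF1 and PSMG2 passed under all 20 alternatives run. The human counts of PSMA1 and PSMD9 are uncertain, since other genes share exon bases with them on the same strand.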

How the results depend on the processing

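In the mouse, 2 genes were called higher and 8 lower. The number higher was 1 with RLE or upper-quartile scaling, no filter, a gene-length offset, the replicate block with or without that offset, and without WT replicate 3 and cKO replicate 2 together. It was 4 with total counts, 0 with DESeq2 and 0 at a log2 change of at least 0.25, and leaving out 1 library gave 0 to 1. The number lower was 5 with total counts, 19 with the GC offset, 16 without both libraries, and 2 to 12 leaving out 1 library. Over all genes it was 1612, 3546, 2855 and 1368 to 2709 in the same order, against 2360 in the main fit. The median of -0.060 was -0.076 with RLE, no filter (-0.0764) or DESeq2 (-0.0755), -0.034 with upper quartile, 0.0059 with total counts, -0.045 with at least 10 counts, -0.089 with the GC offset, and -0.070 to -0.041 leaving out 1 library. In the human cells, a log2 change of at least 0.25 left 3 of 14 higher and 9 of 18 lower, and leaving out 1 library gave 11 to 14 and 17 to 19. For the limit of 0.25 the share of all genes was not computed in either experiment. The median of -0.047 was 0.023 with upper quartile, -0.076 with total counts, and -0.047 to -0.017 leaving out 1 library.

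The labels do not say whether equal replicate numbers pair the samples. Deviations of same-numbered libraries correlated at 0.64, -0.42 and 0.086 in the mouse and at -0.028, -0.00032 and -0.0072 in the human cells. Mouse WT replicate 3 correlated at 0.71 with cKO replicate 2 and at -0.75 with cKO replicate 1. Since mouse deviations also followed GC content, these correlations cannot decide whether the samples are paired. With the replicate block the mouse counts were 1 and 8, the human counts 13 and 18, and 24 genes differed between the experiments. Over all genes, the block gave 2811 and 2356 of 14918 in the mouse and 5082 and 5519 of 20188 in the human cells. Between the experiments, 3577 of 10318 matched genes were then above and 2144 below.

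Of 736 alternative values for named genes, 642 kept their direction and call, 54 lost the call, 21 gained it and 19 changed sign, none of the last called in the main test. In the mouse these were PSMB6 (-0.2117 to 0.0062 leaving out 1 library, the last without cKO replicate 2), PSMD14 (-0.0137 with RLE or DESeq2, -0.0146 with no filter, -0.0386 with the GC offset, -0.0117 to 0.0254 leaving out 1 library, below 0 without WT replicate 1, WT replicate 2 or cKO replicate 3), PSME1 (-0.1924 to 0.0565 leaving out 1 library, above 0 without WT replicate 1 or cKO replicate 2), PSME4 (-0.0162 with the length offset, -0.0161 with the block too), PSMC1 (-0.0042 to 0.0693 leaving out 1 library, below 0 without cKO replicate 2, -0.0154 with the GC offset), PSMD1 (0.0078 with total counts), PSMD10 (0.0251 with total counts, -0.08 to 0.0333 leaving out 1 library, above 0 without cKO replicate 1) and PSMB1 (-0.0294 with the GC offset). Human PSMD7 was 0.0171 with upper quartile. The cause was not tested.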
